A study of Mus musculus with 4 samples.

Results

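The long noncoding RNAs (lncRNAs) Malat1, Neat1, Miat, Snhg11, Rmst and Pvt1 were followed through a pulldown of tagged ribosomes from mouse deep cerebellar nuclei. They were chosen as RNAs held in the nucleus, and their place in the cell was not measured here. The members were taken by exact gene symbol, and all 6 were found among the 32531 gene names of the count tables. The study used translating ribosome affinity purification (TRAP), in which an EGFP-tagged ribosomal protein L10a (Rpl10a) is made in a chosen cell type and polysomes are recovered from the tissue with antibodies against EGFP. The mice were untreated adults of the Slc17a6-EGFP/Rpl10a line JX883, whose transgene is named for Slc17a6, the vesicular glutamate transporter VGLUT2 of many glutamatergic projection neurons. All 4 libraries were immunopurified RNA, each from tissue of 3 mice, and formed a single group, so the design held no comparison of conditions. Input or untagged libraries were not analysed here, so a level in the pulldown is not an enrichment over the tissue. The labels do not say whether the pools came from separate animals, and p-values here measure only the spread between these libraries.

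Ribosomes act in the cytoplasm, and RNAs that do not leave the nucleus are seldom translated. Malat1 sits in nuclear speckles, which store splicing factors, and Neat1 is the scaffold of paraspeckles, which hold RNA-binding proteins such as Nono and Sfpq. Miat is a neuronal RNA that binds splicing factors, Snhg11 carries small nucleolar RNAs in its introns, Rmst works with the transcription factor Sox2 in neural differentiation, and Pvt1 lies next to Myc, whose activity it is known to affect. In a ribosome pulldown such RNAs are used as a gauge of RNA that is not on ribosomes, although a count does not say how a molecule came to be in the eluate.

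Malat1 and Neat1 are neighbours on mouse chromosome 19. Malat1 and the long Neat1 transcript both end in an unusual way, in that RNase P cuts the transcript. The new end is protected by a triple helix of U-rich stretches and an A-rich tail instead of a poly(A) tail added after cleavage. The last 110 bases before the Malat1 cut (chr19:5795982-5796091, minus strand, GRCm38, which is mm10) and the last 110 bases of the long Neat1 transcript (chr19:5824708-5824817, minus strand) are shown because they hold that element. Capitals mark the 3 runs of at least 10 bases that both share in the same order. These and the other sequences come from the GENCODE release M21 transcripts, and both stretches are exonic.
Malat1: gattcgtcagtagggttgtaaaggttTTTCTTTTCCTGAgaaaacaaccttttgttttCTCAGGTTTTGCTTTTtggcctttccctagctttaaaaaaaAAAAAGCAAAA
Neat1: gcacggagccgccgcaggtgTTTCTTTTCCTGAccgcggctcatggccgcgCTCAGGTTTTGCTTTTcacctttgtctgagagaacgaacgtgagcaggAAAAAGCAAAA
The 58 bases after the Malat1 cut (chr19:5795924-5795981, minus strand) are mascRNA, a tRNA-like RNA that is released to the cytoplasm.
mascRNA: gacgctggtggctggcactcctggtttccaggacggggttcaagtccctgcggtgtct
Among the longest transcripts of 13374 GENCODE lncRNA genes, read on the transcript strand, the run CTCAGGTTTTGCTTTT occurred in 2 (0.015%), which were Malat1 and Neat1, and its reverse complement in 0. The run TTTCTTTTCCTGA occurred in 5 genes (0.0374%; reverse complement in 8), and AAAAAGCAAAA in 67 (0.501%; reverse complement in 78).

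Miat carries copies of TACTAAC, the consensus sequence of the intron branch point that splicing factor Sf1 binds. Its longest transcript held 6 copies in 2 groups of 3, both in exon 7 and printed with the copies in capitals. The first group spans chr5:112217309-112217460 and the second chr5:112216752-112216812, both on the minus strand of the same build.
Miat first group: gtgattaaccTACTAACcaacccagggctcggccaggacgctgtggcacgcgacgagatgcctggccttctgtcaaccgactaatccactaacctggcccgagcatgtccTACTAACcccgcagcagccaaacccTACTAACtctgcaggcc
Miat second group: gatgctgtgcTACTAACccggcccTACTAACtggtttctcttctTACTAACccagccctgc
TACTAAC occurred in 613 of the 13374 lncRNA genes (4.58%; reverse complement in 603), 1 of them Neat1 with 1 copy. At least 6 copies occurred in 2 genes, Miat being 1 of them. Among 21 genes with a transcript at least as long as that of Miat, itself included, only Miat had as many. Of all windows of 152 bases, 0.0015% held at least 3 copies, and of all windows of 61 bases 0.00045% did. These lengths were taken from the Miat groups, and the overlapping windows of Miat itself are included in both shares. The motif had no match in the longest transcripts of Malat1, Rmst and Pvt1.

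The libraries held 9621762, 10306407, 10436291 and 10988373 counts on genes in replicates 1 to 4, and levels are given as CPM, each count divided by its library's total and multiplied by 1000000. The marker Slc17a6 stood at 2143 ± 153 CPM (SD, n = 4), and all 10 genes of a list for glutamatergic nuclear neurons had at least 1 CPM in every library. So did all 6 of a granule cell list and 7 of 8 of an oligodendrocyte list, so such a count does not single out the target cells. Of all 32531 gene names, 13656 had a mean of at least 1 CPM. Some libraries stood apart. Replicate 1 held 2486 CPM of the transcription factor Tcf7l2, against 8.55 to 42.0 CPM in the other 3, and it also differed in Tfap2d and Ankrd63. Replicate 4 differed in 7 genes by edgeR, among them Hspg2 at 58.3 CPM, against 1.84 to 5.72 CPM in the other 3, and Smim7 at 7.64 CPM, against 67.0 to 105 CPM. These genes are named after their values were seen. Replicate 3 had the highest summed level of the Purkinje, granule and inhibitory neuron lists and of every glial and vascular list. The ribosomal precursor Rn45s took 4.99%, 14.2%, 13.6% and 4.92% of gene counts in replicates 1 to 4. Beside the gene counts, HTSeq set aside reads in no feature equal to 14.1%, 19.5%, 21.1% and 19.3% of all counted reads.

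Malat1, the RNA of nuclear speckles, was the most abundant lncRNA of the pulldown. It had 19571, 24328, 37745 and 22969 counts in replicates 1 to 4, or 2034, 2360, 3617 and 2090 CPM. Replicate 3 was high and the other 3 lay close together. The mean was 2525 ± 741 CPM (SD, n = 4), the highest library held 1.78 times the lowest, and the coefficient of variation (CV, SD over mean) was 29.4%. Counting error alone would give 0.619%. Over 13656 gene names with a mean of at least 1 CPM the median CV was 39.1%, and 65.9% of these names varied more than Malat1. Its single exon covers chr19:5795690-5802672, 6983 bases on the minus strand. The GENCODE gene Gm37376 on the other strand, which the count table does not list, shares 453 of these bases. Since the sources do not state stranded counting, reads from both strands could not be told apart.

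Neat1, the paraspeckle scaffold, was scarce and the most uneven of the 6. It had 17, 18, 173 and 121 counts in replicates 1 to 4. That gave 1.77, 1.75, 16.6 and 11.0 CPM, with exact Poisson 95% intervals for counting error alone of 1.03 to 2.83, 1.04 to 2.76, 14.2 to 19.2 and 9.14 to 13.2. Replicates 3 and 4 were high and replicates 1 and 2 low, and the intervals of the first pair did not overlap those of the second. The pairs were formed from these same values, and how many other genes show such a gap was not counted. The mean was 7.78 ± 7.31 CPM (SD, n = 4), and 4.84 CPM without replicate 3. The highest library held 9.49 times the lowest. The CV was 94.0%, against 11.0% from counting, and 9.71% of the 13656 names varied more. In edgeR's dispersion estimates over 11227 genes, 0.285% of genes had a larger biological CV than the 68.9% of Neat1. These genes had passed a filter asking for a minimum count in all libraries, so genes absent from some libraries were left out. The estimates are also drawn towards a trend, which was 54.7% for Neat1, so 0.285% is not comparable with 9.71%. The Neat1 exon covers chr19:5824708-5845478, 20771 bases on the minus strand. It shares no exon bases with an annotated gene on the other strand.

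Miat, the RNA with the TACTAAC copies, had 39, 156, 78 and 59 counts in replicates 1 to 4, or 4.05, 15.1, 7.47 and 5.37 CPM. Replicate 2 was high, which was not the library that was high for Malat1 or Neat1. The mean was 8.01 ± 4.96 CPM (SD, n = 4), with a 3.73-fold range and a CV of 61.9%, against 11.0% from counting. The gene spans chr5:112213228-112229395 on the minus strand with 9293 exonic bases, of which 2260 are shared with Gm26953 on the other strand.

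Snhg11, the small nucleolar RNA host, was the steadiest member. It had 1187, 1290, 1218 and 1655 counts in replicates 1 to 4, or 123, 125, 117 and 151 CPM. Replicate 4 was the highest and the other 3 lay close together. The mean was 129 ± 14.9 CPM (SD, n = 4), and the CV of 11.5% was smaller than that of 95.4% of the 13656 names. Counting error alone would give 2.74%. It lies at chr2:158375638-158386145 on the plus strand with 8521 exonic bases. RefSeq lists it as lncRNA, while GENCODE gives it 1 protein-coding, 2 nonsense-mediated decay and 2 retained-intron transcripts.

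Rmst and Pvt1, the 2 members linked to transcription factors, were at low levels, and in replicate 3 Rmst was at its lowest and Pvt1 at its highest. Rmst had 149, 113, 57 and 100 counts in replicates 1 to 4, or 15.5, 11.0, 5.46 and 9.10 CPM, highest in replicate 1 and lowest in replicate 3. Its mean was 10.3 ± 4.17 CPM (SD, n = 4) with a CV of 40.7%, close to the median of the 13656 names. Pvt1 had 130, 113, 192 and 130 counts, or 13.5, 11.0, 18.4 and 11.8 CPM, with replicate 3 above the other 3. Its mean was 13.7 ± 3.32 CPM (SD, n = 4) with a CV of 24.3%, against 8.42% from counting. Rmst lies at chr10:92071037-92165170 on the minus strand, and 1955 of its 7423 exonic bases are shared with Gm26700 on the other strand. Pvt1 spans chr15:62037986-62378096 on the plus strand with 6996 exonic bases, and its partner H2afy3, which shares 109 of them, had at most 1 count per library.

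**Figure D1:**
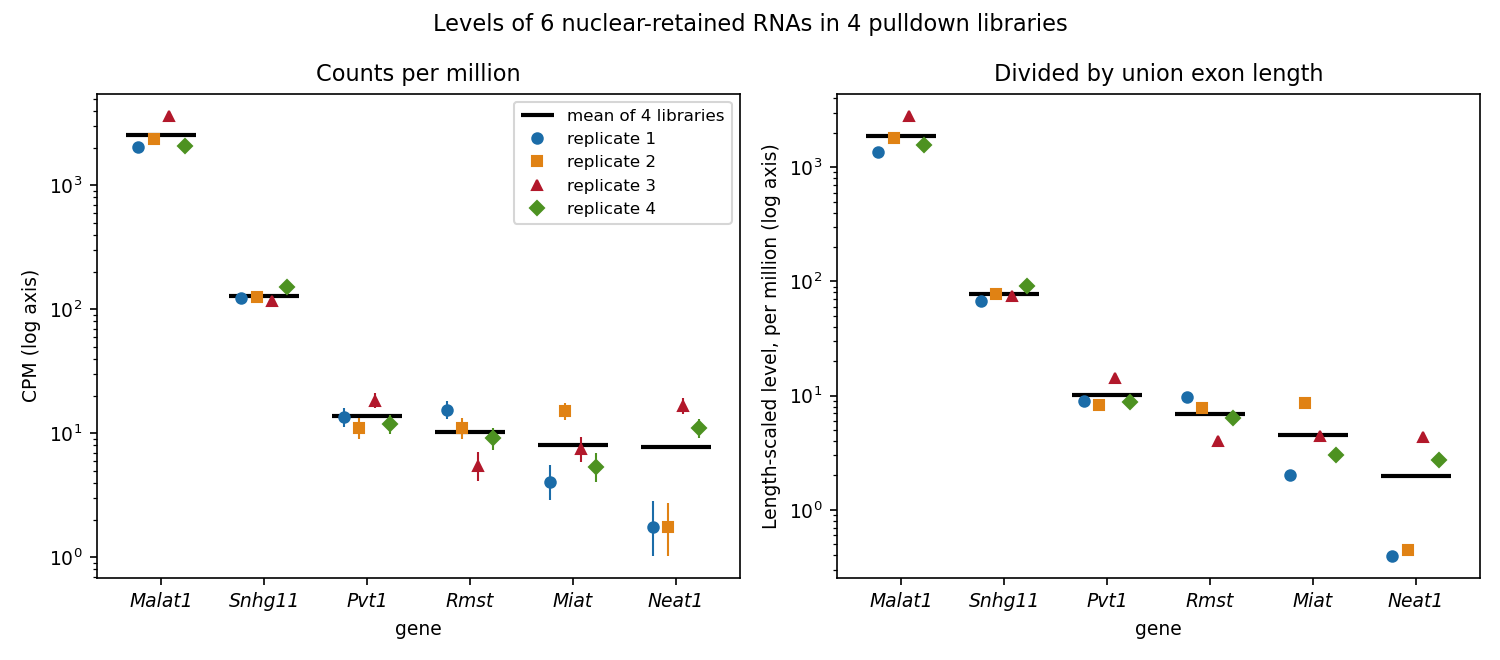
Level of each RNA in the 4 libraries as CPM (left, with exact Poisson 95% intervals) and after division by the union exon length, scaled to a sum of 1000000 (right), both on log axes, with the mean as a horizontal line. Malat1 and Snhg11 stood apart from the other 4, and the 2 low Neat1 libraries were replicates 1 and 2.

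The members were compared with each other only per length, as counts per kilobase of union exon scaled to a sum of 1000000 within each library. On this scale Malat1 averaged 1882 ± 660, Snhg11 77.9 ± 10.1, Pvt1 10.1 ± 2.88, Rmst 6.97 ± 2.39, Miat 4.51 ± 2.90 and Neat1 1.99 ± 1.93 (SD, n = 4 each). Malat1 exceeded Snhg11 by 4.54 ± 0.50 on the log2 scale of the level plus 0.5, and Snhg11 exceeded Pvt1 by 2.91 ± 0.43, in 4 of 4 libraries each. The lower 4 were not separated from their neighbours. Pvt1 minus Rmst was 0.53 ± 0.82 with Pvt1 higher in 3 of 4 libraries, and Rmst minus Miat was 0.68 ± 1.03 with Rmst higher in 2 of 4. With the longest transcript as the length, Rmst minus Miat was 1.92 ± 1.01, larger than its SD, so this order rests on the isoforms counted. Miat minus Neat1 was 1.22 ± 1.53, which is smaller than its SD, although Miat was higher in 4 of 4. Among 1853 lncRNA names with a length, Malat1 ranked 1, Snhg11 21, Pvt1 145, Rmst 204, Miat 272 and Neat1 414 by this level. Neat1 has 4 annotated transcripts, but its union exon and its longest transcript are both 20771 bases. Its level and rank rest on that length, and a shorter isoform would give a higher level.

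Set against Slc17a6 itself, Malat1 was of the same order. The length-scaled level of Malat1 was 1355, 1786, 2835 and 1550 in replicates 1 to 4, and that of Slc17a6 was 1927, 1968, 2042 and 2214. Malat1 was above the marker in replicate 3 and below it in the other 3, with a mean log2 difference of -0.17 ± 0.46 (SD, n = 4), smaller than its spread. Snhg11 lay below Slc17a6 by a nearly constant amount, with a log2 difference of -4.71 ± 0.11 (SD, n = 4). For Neat1 the difference was -10.06 ± 1.18, with 20771 bases taken as its length.

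Malat1 made up most of the summed level of the set. The 6 RNAs together held 2192, 2524, 3781 and 2278 CPM in replicates 1 to 4, or 0.219%, 0.252%, 0.378% and 0.228% of gene counts. Its share of that sum was 91.8% to 95.6%. Without Malat1 the other 5 summed to 158, 164, 165 and 188 CPM (169 ± 13.2, SD, n = 4), so the excess of replicate 3 was not in their sum. In that library Pvt1 and Neat1 were at their highest CPM and Rmst and Snhg11 at their lowest. By length-scaled level Snhg11 was instead lowest in replicate 1, at 67.3 against 75.0 in replicate 3.

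All 2041 names that RefSeq classes as lncRNA summed to 8946, 8289, 9347 and 9473 CPM in replicates 1 to 4. Malat1 was 22.7%, 28.5%, 38.7% and 22.1% of these counts, again highest in replicate 3. The lncRNA counts without Malat1 were lowest in that library, at 5730 CPM, against 6912, 5929 and 7383 CPM in replicates 1, 2 and 4. The lncRNA names with the most counts after Malat1 were Peg13 (921 ± 385 CPM), Meg3 (329 ± 30.2 CPM) and 2900097C17Rik (226 ± 63.1 CPM; SD, n = 4). By length-scaled level these ranked 2, 19 and 10, and Chd3os and B230217C12Rik held ranks 3 and 4.

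**Figure D2:**
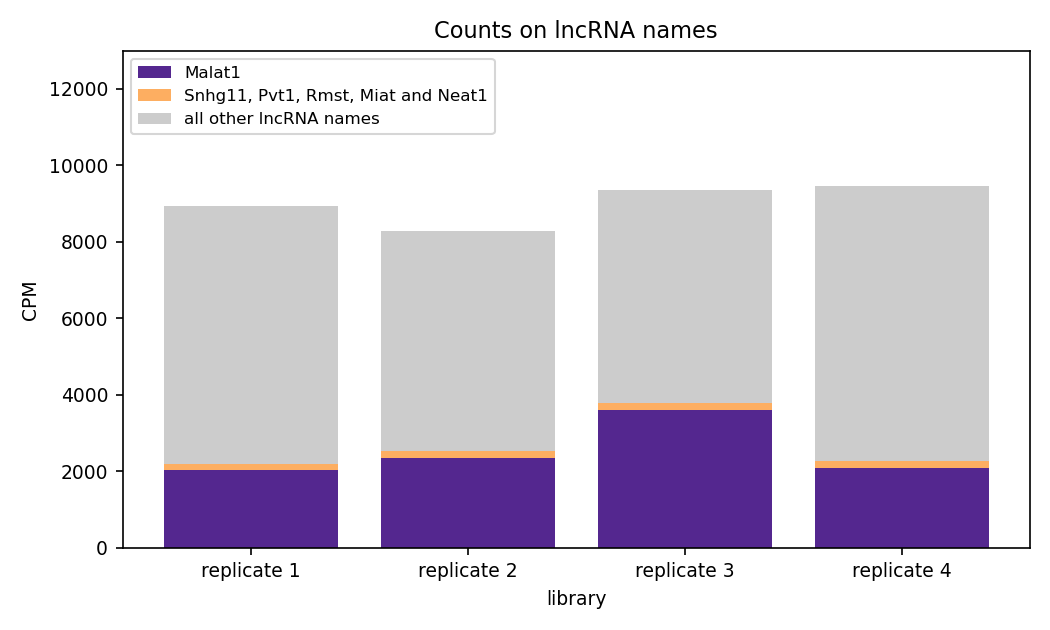
Stacked CPM of Malat1, of the other 5 RNAs and of all other lncRNA names in each library, from 0. Malat1 took 38.7% of the lncRNA counts in replicate 3 and 22.1% to 28.5% in the others, while the other 5 together stayed between 158 and 188 CPM.

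In turn, every library was tested against the rest by edgeR's quasi-likelihood method to ask whether a member differed by more than the spread of the rest. The tests covered 15083 genes, and calls needed a Benjamini-Hochberg adjusted p under 0.05. All 6 members passed the low-count filter. The share of all genes called was 0.0199% for replicate 1, 0% for replicate 2, 0% for replicate 3 and 0.0464% for replicate 4, and 0 of the 24 member tests were called. DESeq2 called 0 members too, against 0.147%, 0.0267%, 0.62% and 3.28% of genes in the same comparisons. None of the 24 had an unadjusted edgeR p under 0.05.

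For Neat1 the values were the most extreme of the set, with wide errors. Its log2 fold change was 1.73 ± 1.03 (SE) for replicate 3 against the other 3 (edgeR adjusted p = 0.783) and 0.82 ± 1.22 for replicate 4. For replicate 1 it was -2.67 ± 1.40 (edgeR unadjusted p = 0.0780) and for replicate 2 -2.52 ± 1.43 (edgeR unadjusted p = 0.0888). The comparison depended on which library was among the others: replicate 3 against replicates 1 and 2 alone gave 3.33 (edgeR adjusted p = 0.114), and replicate 4 against the same pair gave 2.82 (edgeR adjusted p = 0.109). Neither passed the threshold.

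Malat1 in replicate 3 had a log2 fold change of 0.77 ± 0.43 against the other 3 (edgeR adjusted p = 0.759). The lowest adjusted p of any member was 0.514 in edgeR, for Snhg11 in replicate 4, where the log2 fold change was 0.46 ± 0.32. Miat had 1.41 ± 1.03 in replicate 2, Rmst -1.06 ± 0.85 in replicate 3 and Pvt1 0.64 ± 0.67 in replicate 3. Signs were mixed, with 3 members above 0 and 3 below in replicate 3 against the rest.

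**Figure D3:**
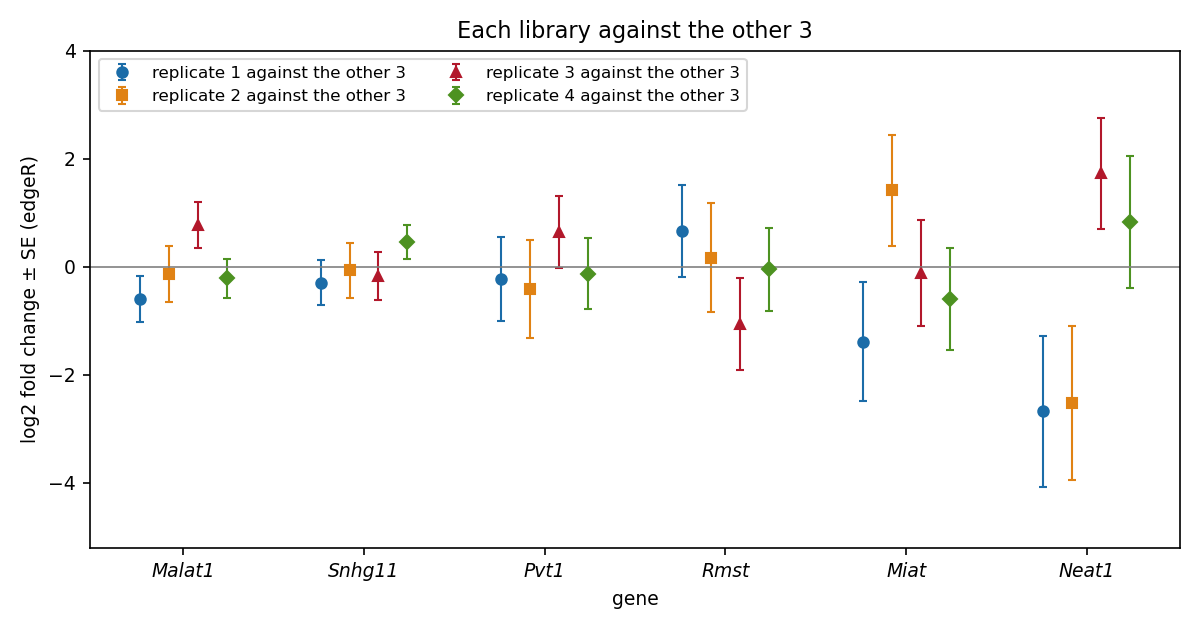
Log2 fold change of each RNA in each library against the other 3, with edgeR standard errors as bars. Neat1 ranged from -2.67 to 1.73 and had the longest bars, Snhg11 stayed between -0.29 and 0.46, and none of the 24 values was called.

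Markers of other cells moved between the same libraries. A list of 8 oligodendrocyte genes, all measured and 7 of them at 1 CPM or more in every library, summed to 476, 732, 1170 and 1005 CPM in replicates 1 to 4. That was low in replicates 1 and 2 and high in replicates 3 and 4, the same split as Neat1. The 4 precursor genes summed to 25.0, 36.7, 65.5 and 52.3 CPM. The 7 microglial genes summed to 4.16, 6.60, 14.3 and 10.9 CPM, with 1 of 7 at 1 CPM or more in every library and the complement gene C1qa at 0 in all 4. Of 8 oligodendrocyte genes 4 were highest in replicate 3, 3 in replicate 4 and 1 in replicate 2. Of 6 microglial genes with counts these numbers were 3, 2 and 1. Cx3cr1, named after its values were seen, held 5.46 CPM of the microglial sum in replicate 4, against 0.19 to 0.73 CPM in the others. The median log2 fold change of the 4 microglial genes tested was 1.39 in replicate 3 and -0.42 in replicate 4.

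For Malat1, which was high in replicate 3 alone, the lists that were also high there included astrocytes and Bergmann glia at 377, 538, 830 and 504 CPM in replicates 1 to 4. Purkinje cell genes summed to 1334, 1615, 3237 and 1152 CPM, and granule cell genes to 567, 690, 1345 and 612 CPM. Inhibitory neuron genes summed to 114, 173, 369 and 72.3 CPM. Endothelial and pericyte genes summed to 51.5, 13.5, 54.0 and 34.8 CPM, high in replicates 1 and 3. Each of these lists had its highest sum in replicate 3. Gene by gene, 7 of 8 astrocyte and Bergmann glia, 4 of 6 Purkinje, 6 of 6 granule and 4 of 4 inhibitory genes were highest there. Of the endothelial and pericyte genes 3 of 7 were. Among Purkinje genes, named after their values were seen, Pcp2 was highest in replicate 2 at 13.0 CPM and Pcp4 was at 0 in replicate 3. The glutamatergic nuclear list was lowest there, at 2996, 2588, 2524 and 3112 CPM, as was the pan-neuronal list at 24652, 22747, 22049 and 30172 CPM. Midbrain-type neuron genes were also lowest in replicate 3, at 61.3, 57.4, 40.0 and 52.0 CPM, with Foxa2 at 0 throughout. Single genes made up most of the glutamatergic and pan-neuronal sums. Snap25 was lowest in replicate 3 at 17886 CPM, while Slc17a6 was at 2014 CPM there and lowest in replicate 2 at 2011 CPM. Of the 10 glutamatergic genes 1 was highest in replicate 3, as was 1 of the 10 pan-neuronal genes. The median log2 fold change there was -0.39 for the glutamatergic and -0.12 for the pan-neuronal genes, beside -0.10 over all genes tested. In such bulk libraries fewer cells of a type and less RNA per cell cannot be told apart, and the part of other cells, of Rn45s or of reads outside features in the levels of Malat1 and Neat1 was not tested.

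**Figure D4:**
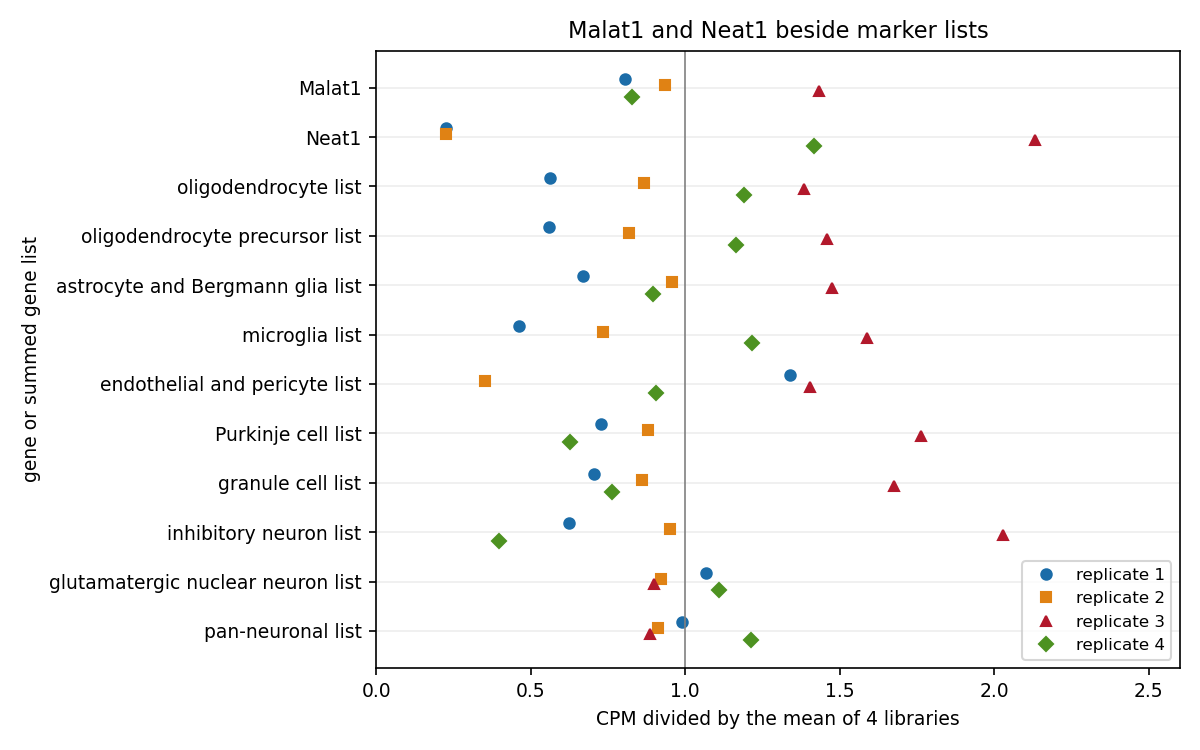
Malat1, Neat1 and the summed CPM of marker lists in each library, divided by the mean of the 4 libraries (vertical line at 1). Replicate 3 lay at 1.43 for Malat1 and 2.13 for Neat1, and above 1 for every glial, vascular, Purkinje, granule and inhibitory list.

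Most genes of the bodies in which these RNAs reside were at 1 CPM or more. Of all 32531 gene names, 13656 had a mean of at least 1 CPM. Of 20 paraspeckle protein genes 19 were measured, 18 of them at 1 CPM or more in every library, and they summed to 1362, 1349, 1481 and 1250 CPM in replicates 1 to 4. The 3 genes with the most CPM, which is not corrected for length here or in the lists that follow, were Hnrnpk (173 ± 25.4 CPM), Smarca4 (172 ± 29.9 CPM) and Matr3 (138 ± 13.1 CPM), and the lowest was Rbm12 (1.93 ± 2.17 CPM; SD, n = 4). Of the 19, 7 were highest in replicate 3, 5 in replicate 2, 4 in replicate 4 and 3 in replicate 1. All 20 speckle and splicing genes were at 1 CPM or more in every library, summing to 2892, 2736, 3309 and 3560 CPM. Srrm2, a core speckle protein, had the most counts with 1063 ± 446 CPM, then Srsf5 (282 ± 71.9 CPM) and Prpf8 (245 ± 52.9 CPM), and U2af1 was lowest at 17.2 ± 7.73 CPM. Of 18 genes for nuclear RNA decay, end processing and retention, 17 were measured, all at 1 CPM or more in every library, with a sum of 880, 677, 801 and 884 CPM. The most counts fell on the nuclear pore protein Tpr (261 ± 53.3 CPM), the exosome helicase Skiv2l2 (101 ± 20.2 CPM) and Nup98 (89.0 ± 29.8 CPM), with Zfp36l1 lowest at 5.51 ± 1.60 CPM.

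Other noncoding RNAs were high in different libraries from one another. Of 22 further RNAs listed as nuclear, some of which may also be cytoplasmic, 21 were measured. Of these, 12 were at 1 CPM or more in every library and 4 at 0 in all (Tsix, Nespas, Dlx6os1 and Hotair). They summed to 1307, 1402, 1285 and 2279 CPM in replicates 1 to 4, high in replicate 4, where Malat1 was near its lowest. Peg13 was the main part of that sum at 777, 787, 631 and 1489 CPM, with fewer counts on Meg3 and Tug1 (90.4 ± 31.6 CPM). Member by member the picture differed from the sum: of the 17 with counts, 7 were highest in replicate 3, 5 in replicate 4, 4 in replicate 1 and 1 in replicate 2. Kcnq1ot1, an imprinted antisense RNA named after its values were seen, had 21.2, 21.1, 55.4 and 32.8 CPM in replicates 1 to 4, high in replicate 3 as Malat1 and Neat1 were. Of 25 cytoplasmic lncRNAs and small nucleolar RNA hosts 16 were measured, 7 at 1 CPM or more in every library, with sums of 495, 454, 519 and 284 CPM. Of these, 10 were highest in replicate 1, 3 each in replicates 2 and 3, and 0 in replicate 4. The most counts fell on 2900097C17Rik, then 1700020I14Rik (107 ± 41.6 CPM) and Gas5, a host RNA that is turned over during translation, at 98.7, 40.7, 21.0 and 23.8 CPM. Gas5 was high in replicate 1, unlike Snhg11, and Snhg8 was lowest at 0.0520 CPM.

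Of 10 coding genes beside the members, 4 were at 1 CPM or more in every library and 4 at 0 in all (Slc25a45, Adig, Arhgap40 and Crybb1). The most counts fell on Ralgapb, near Snhg11, with 307 ± 45.7 CPM, then on Ltbp3, near Malat1 and Neat1 (20.3 ± 9.25 CPM), and Myc, beside Pvt1 (12.7 ± 10.7 CPM; SD, n = 4). Ltbp3 was at 31.0 CPM in replicate 2 and 8.46 to 21.2 CPM in the others, and so was not high in the libraries where Malat1 or Neat1 were. Myc was at 28.8 CPM in replicate 4 and 6.71 to 7.79 CPM in the others, while Pvt1 was highest in replicate 3.

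No gene of these lists was called in any library against the other 3 by edgeR, out of 160 list genes tested. Unadjusted edgeR p-values under 0.05 numbered 18, 1, 21 and 32 for replicates 1 to 4. That was 11.2%, 0.625%, 13.1% and 20% of the list genes, beside 3.30%, 0.517%, 7.01% and 14.7% of all genes tested. DESeq2 called 0, 0, 0 and 11, among them Peg13 and Srrm2, and the 11 were 7.28% of the list genes, beside 3.28% of all genes. The other list genes that DESeq2 called in replicate 4 were Car8, Dleu2, Gdf10, Gja1, Slc32a1, Slc6a5, Srsf2, Syn1 and Xist. By CPM, Peg13, Srrm2, Syn1 and Xist were highest in that library and the rest lowest. Xist, one of the further nuclear RNAs, had 19.3, 32.9, 31.6 and 111 CPM in replicates 1 to 4. In replicate 3 the median log2 fold change was 0.18 for paraspeckle genes, 0.15 for speckle genes and -0.14 for the further nuclear RNAs, beside -0.10 over all genes tested.

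The genes with the most similar profiles were sought among 8845 genes with a mean of at least 10 CPM, by the root mean square difference of centred log2(CPM + 0.5) over 4 libraries. For Malat1 these were Mphosph8 (0.02), Phrf1 (0.03) and Snrnp200 (0.03). Mphosph8 had 47.3, 53.0, 82.5 and 48.0 CPM in replicates 1 to 4 and so was high in replicate 3 alone. For Neat1 no gene came as close: Zbtb37 (0.30; 3.85, 4.08, 21.8 and 14.7 CPM), Esrrb (0.50) and Kynu (0.53) were nearest. For Miat they were Stk40 (0.13), Ephb6 (0.21) and Lars2 (0.23). Snhg11 was matched by Tshz1 (0.02), Zwint (0.03) and Nptn (0.04), which were also highest in replicate 4. Rmst was matched by B3gnt2 (0.04), Srek1ip1 (0.04) and Anapc15 (0.05), and Pvt1 by Arfip1 (0.02), Tada2a (0.02) and Ndufaf7 (0.03). Over only 4 libraries, close matches among 8845 genes carry little information, and these are descriptions only.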

How the data were processed

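Per the labels, RNA was immunopurified from pools of 3 mice, and per the submitters' processing notes reads were aligned with STAR 2.0.0e to mm10 and counted with HTSeq. The deposited files hold raw counts per gene name; no source used here gives the annotation, strand setting or kit. A row named unknown (0 counts) and 5 HTSeq summary rows stayed out of library totals. Totals were 9621762 to 10988373 counts, with a floor of 3 counts at 0.273 to 0.312 CPM. Intervals cover counting error only. No 2 libraries were alike within counting noise (chi-square over its degrees of freedom, 34.9 to 127).

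CPM used all named genes. Lengths were GENCODE release 21 (mouse) union exons, found for 73.4% of names and 97.2% of those with at least 10 counts in every library. A single library at a time was tested against the rest (edgeR 4.0.16, R 4.3.3; TMM scaling, filterByExpr, robust quasi-likelihood test; the lone library is assumed to vary like the others), and with DESeq2 1.42.0 as an alternative. Named genes were the 6 members, the 3 highest and the lowest of each list, list genes called in a test, the 3 nearest profiles and genes said to be chosen later. A gene of the neighbour list is not reported here. Members and lists were chosen with earlier results of these data known.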

Additional observations from a re-analysis of the deposited data

Results flagged for a closer look

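Of 82 values reported per library, 9 had 1 library farther from the other 3 than the 95% critical value of Dixon's ratio allows, where chance alone flags about 1 in 20. Among the 6 members this was the length-scaled level of Pvt1, at 14.39 in replicate 3 against 8.28 to 8.982 in the others. The CPM of Pvt1, at 18.4 in replicate 3 against 11.0 to 13.5 in the others, was tested too and was not flagged. With the same length in every library, the flag thus rests on how the libraries were scaled. Mphosph8, the gene nearest to Malat1 in profile, stood at 82.5 CPM in replicate 3 against 47.29 to 52.98 CPM, and the granule cell list summed to 1345 CPM there against 566.5 to 690.1 CPM. In replicate 4 the further nuclear RNAs summed to 2279 CPM against 1285 to 1402 CPM, and the coding neighbours of the members to 414.2 CPM against 316.7 to 331.2 CPM. Also in replicate 4, Myc stood at 28.76 CPM against 6.707 to 7.795 CPM, Smarca4 at 215.9 CPM against 150.2 to 160.8 CPM, and Zwint, near Snhg11 in profile, at 2082 CPM against 1636 to 1671 CPM. Snhg8 stood at 0.2079 CPM in replicate 1, below the floor of 0.312 CPM, and at 0 in the others. Neat1 was not among these values: its libraries fell into 2 pairs.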

How the results depend on the processing

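No paired analysis was possible because the libraries form a single group. Calls over all genes moved with the tool and the filter. For replicates 1 to 4 edgeR called 3 (all higher), 0, 0 and 7 (6 higher, 1 lower) genes, and DESeq2 called 25 (12 higher, 13 lower), 5 (1 and 4), 90 (26 and 64) and 430 (154 and 276). With no filter on low counts, calls were 32 (27 higher, 5 lower) in replicate 1, 86 (42 and 44) in replicate 3 and 416 (241 and 175) in replicate 4. A filter asking for the minimum in all libraries, added after seeing the data, left 1 call in replicate 1. Leaving out 1 of the other libraries gave 7 to 31, 0 to 2, 1 to 33 and 74 to 125 calls. No member was called in any of 192 alternative values (lowest adjusted p 0.109), and 181 kept their direction. The 11 that turned all left out 1 library, and their log2 fold changes over the libraries left out in turn were as follows. For replicate 1, Pvt1 ranged from -0.37 to 0.0389 (the highest without replicate 3). For replicate 2, Malat1 ranged from -0.32 to 0.21 and Rmst from -0.12 to 0.52 (0.21 and -0.12 without replicate 3), and Snhg11 from -0.16 to 0.13 (0.13 without replicate 4). For replicate 3, Miat ranged from -0.47 to 0.68 (0.68 without replicate 2) and Snhg11 from -0.28 to 0.0058 (0.0058 without replicate 4). For replicate 4, Malat1 ranged from -0.42 to 0.10 and Pvt1 from -0.27 to 0.14 (0.10 and 0.14 without replicate 3), Miat from -0.97 to 0.0478 (0.0478 without replicate 2), and Rmst from -0.34 to 0.25 (0.25 without replicate 1, 0.02 without replicate 2). Without 1 library, mean levels ranged over 2162 to 2689 CPM for Malat1, 4.84 to 9.79 for Neat1, 5.63 to 9.33 for Miat, 122 to 133 for Snhg11, 8.51 to 11.9 for Rmst, 12.1 to 14.6 for Pvt1 and 2332 to 2861 for their sum. As CPM over all counted reads in place of gene counts, levels were 1521 for Malat1, 78.7 for Snhg11, 8.30 for Pvt1, 6.42 for Rmst, 4.80 for Miat and 4.54 for Neat1, all lower by over 1.5 times. The sum without Malat1 was 169 CPM. Divided by the longest transcript or by the RefSeq-paired transcript (the second added later), Malat1 minus Snhg11 was 4.0 in both and Snhg11 minus Pvt1 2.40 and 1.68. Rmst minus Miat was 1.92 and 2.01, with SDs of 1.01 and 1.05, so this pair exceeded its SD with either length. Pvt1 minus Rmst was 0.27 and 0.90, with SDs of 0.85 and 0.86, so it exceeded its SD with the RefSeq-paired length. Without 1 library the union-exon differences were 4.30 to 4.69, 2.78 to 3.10, 0.14 to 0.74, 0.24 to 0.96 and 0.54 to 1.62 in descending order of the genes. Miat minus Neat1 exceeded its SD without replicate 3, at 1.62 ± 1.59. The annotated lengths of Rmst and Pvt1 span many transcripts, and the isoforms present are unknown. For Neat1 the union, longest and RefSeq-paired lengths were all 20771 bases, so a shorter isoform of it was not tried. Neat1 in replicates 1 and 2 rests on 17 and 18 counts.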

Other observations

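Some genes of the lists, chosen after their values were seen, are given here as values. Nono, a core paraspeckle protein that binds Neat1, had 72.3, 98.3, 156 and 141 CPM in replicates 1 to 4, and Sfpq, its partner, had 83.6, 78.6, 69.7 and 93.2 CPM. Nono was higher in replicates 3 and 4 than in the others, as Neat1 was, while Sfpq was lowest in replicate 3. Frmd8, a coding neighbour of Neat1, had 1.77, 2.62, 9.58 and 0.728 CPM, high in replicate 3 alone.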
